A study of Homo sapiens with 9 samples.

Results

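TGFB1, TGFB2, TGFBR1, TGFBR2, SMAD2, SMAD3, SMAD4, SMAD7 and SKIL were followed across knockdown of RNF40 and of TG2 in HCT116 cells, an established human colon adenocarcinoma line. The genes were chosen by symbol as the core of the transforming growth factor beta (TGF-beta) pathway: ligands, receptors, SMAD transducers and a pair of feedback inhibitors. Each symbol had 1 row on a primary chromosome, so all 9 genes were found among the 63677 in the table. Cells were transfected with siRNF40, siTG2 or siControl using the lipid reagent RNAiMAX, and polyadenylated RNA was sequenced 48 h later in 3 libraries per group, 9 in all. The genotype is labelled WT in every library. RNF40 encodes an E3 ligase for histone H2B monoubiquitination, and TG2, the product of TGM2, is a transglutaminase that cross-links proteins and can attach serotonin to histone H3, the activity named in the title of the study. The labels give neither the siRNA sequences nor any added TGF-beta, and do not say whether the replicates were separate cultures. The spread between libraries, against which the p-values are set, may therefore be technical.

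TGF-beta ligand is secreted in a latent form and, once released, brings together the type II receptor (TGFBR2) and the type I receptor (TGFBR1). The type I receptor phosphorylates SMAD2 and SMAD3, which enter the nucleus with SMAD4 and bind regulatory DNA. SMAD7 blocks the receptor and SKIL (SnoN) represses SMAD complexes, and both genes are themselves classical SMAD targets. HCT116 is a mismatch-repair-deficient line known to carry frameshift mutations in TGFBR2, so its type II receptor is held to be defective; the values here are mRNA levels and say nothing of the protein.

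Values are normalised counts, that is, reads per gene divided by a size factor for each library. Each library had between 29161285 and 35743918 reads in genes, and 1 read was worth 0.880 to 1.10 normalised counts. A gene was called when limma's Benjamini-Hochberg adjusted p over 17663 tested genes was under 0.05, and log2 fold changes are on the scale of log2(value + 1). RNF40 had 535, 497 and 528 normalised counts in the siRNF40 libraries, against 3004, 2784 and 2565 in the siControl libraries. TGM2 had 59.4, 121 and 155 in the siTG2 libraries, against 559, 702 and 554 in the siControl libraries. Both targets were lower in every library of their own knockdown, with log2 fold changes of -2.42 for RNF40 (adjusted p = 5.3e-13) and -2.52 for TGM2 (adjusted p = 1.1e-07). RNF40 was also called lower in siTG2 cells (log2 fold change -0.27, adjusted p = 0.019), while TGM2 in siRNF40 cells stood at 0.54 (adjusted p = 0.063). The siTG2 libraries held reads for 27123 to 27602 genes, against 25162 to 25468 in the siControl libraries and 25296 to 25548 in the siRNF40 libraries. Of 8 colon epithelium markers, 7 reached a mean of 10. Summed, the 8 lay between 129444 and 156197 in siRNF40, 77918 and 89030 in siTG2, and 87296 and 95753 in siControl libraries. Most of each sum was KRT8, KRT19 and KRT18. KRT8 averaged 67732 ± 6465 in siRNF40 and 36809 ± 1964 in siControl cells (SD, n = 3 each). EPCAM (10408 against 9315) and CDH1 (7231 against 5178) were also higher in siRNF40 cells. CDX2 stood at 355 against 337, CDH17 at 6.61 against 19.6 and VIL1 at 2.81 against 0.344. In siTG2 cells the means of EPCAM (7511), CDH1 (4209) and KRT19 (22553 against 28837) were below those of siControl cells. KRT8 (38106) and KRT18 (10848 against 10693) lay close to siControl there. CDX2 stood at 318, CDH17 at 15.4 and VIL1 at 4.30 in siTG2 cells. Of 6 fibroblast markers, 2 reached a mean of 10 (COL1A1 and PDGFRB), and DCN and LUM were at 0 throughout. The sums were 1371 to 1705 in siRNF40, 1016 to 1172 in siTG2 and 822 to 997 in siControl libraries. Nearly all of each sum was COL1A1, a collagen chain, which averaged 1463 ± 175 in siRNF40, 1050 ± 86.8 in siTG2 and 889 ± 87.2 in siControl cells (SD, n = 3 each). Of 8 leukocyte and red cell markers, 1 reached a mean of 10 and CD3E was at 0; the sums were 22.4 to 49.97 in siRNF40, 40.1 to 62.2 in siTG2 and 23.2 to 30.4 in siControl libraries. The part of the marker shifts in the results was not tested.

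Because SMAD7 and SKIL are the members known as SMAD targets, the 250 bases upstream of their 5'-most annotated start are shown (RefSeq, GRCh38.p14, read 5' to 3' on the gene's strand). Capitals mark the SMAD box CAGAC or its reverse complement GTCTG. The first lies on chromosome 18, chr18:48950966-48951215, minus strand, and the second on chromosome 3, chr3:170357465-170357714, plus strand.
SMAD7: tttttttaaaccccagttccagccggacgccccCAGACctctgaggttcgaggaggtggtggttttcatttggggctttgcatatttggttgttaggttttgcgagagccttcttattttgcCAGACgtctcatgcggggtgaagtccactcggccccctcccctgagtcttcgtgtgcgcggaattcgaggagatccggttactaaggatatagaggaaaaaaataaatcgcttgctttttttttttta
SKIL: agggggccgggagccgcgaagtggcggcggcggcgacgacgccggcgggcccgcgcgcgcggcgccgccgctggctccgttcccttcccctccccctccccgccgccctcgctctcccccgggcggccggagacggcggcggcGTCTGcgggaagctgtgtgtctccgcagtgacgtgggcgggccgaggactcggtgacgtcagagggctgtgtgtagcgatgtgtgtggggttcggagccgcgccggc
The SMAD7 window holds 2 matches in 48.0% G and C, and the SKIL window 1 match in 78.4% G and C. SMAD7 has 3 annotated windows, of which 2 hold a match, and none holds more than the 2 of the window shown. SKIL has 1 window. CAGAC on either strand occurs in 13345 of 35116 such windows of all genes, so holding a match is common. The 8-base SMAD palindrome GTCTAGAC occurs in 0.182% of those windows and in 0 of the 24 windows of the 9 genes. Only the 250 bases upstream of each annotated start were searched. Sequence downstream of a start or further upstream was not, so a palindrome there would have been missed.

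Divided by transcript length, the members spanned from SMAD3 to TGFB2. In siControl cells SMAD3 stood at 1462 ± 14.7 normalised counts per kb (SD, n = 3), followed by TGFB1 at 655 ± 22.0, TGFBR1 at 423 ± 7.75 and SMAD4 at 375 ± 9.76. TGFBR2 at 326 ± 28.5 and SKIL at 319 ± 13.5 lay within their spread of each other. Lower down were SMAD2 at 144 ± 3.21, SMAD7 at 54.5 ± 7.32 and TGFB2 at 8.75 ± 1.80. The place of 2 genes depends on the transcript used as length: with the shorter principal transcript SMAD2 would stand at 411 per kb and SKIL at 749. The lengths come from GENCODE 29 and are those of the longest principal transcript with the best support level for each gene.

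**Figure D1:**
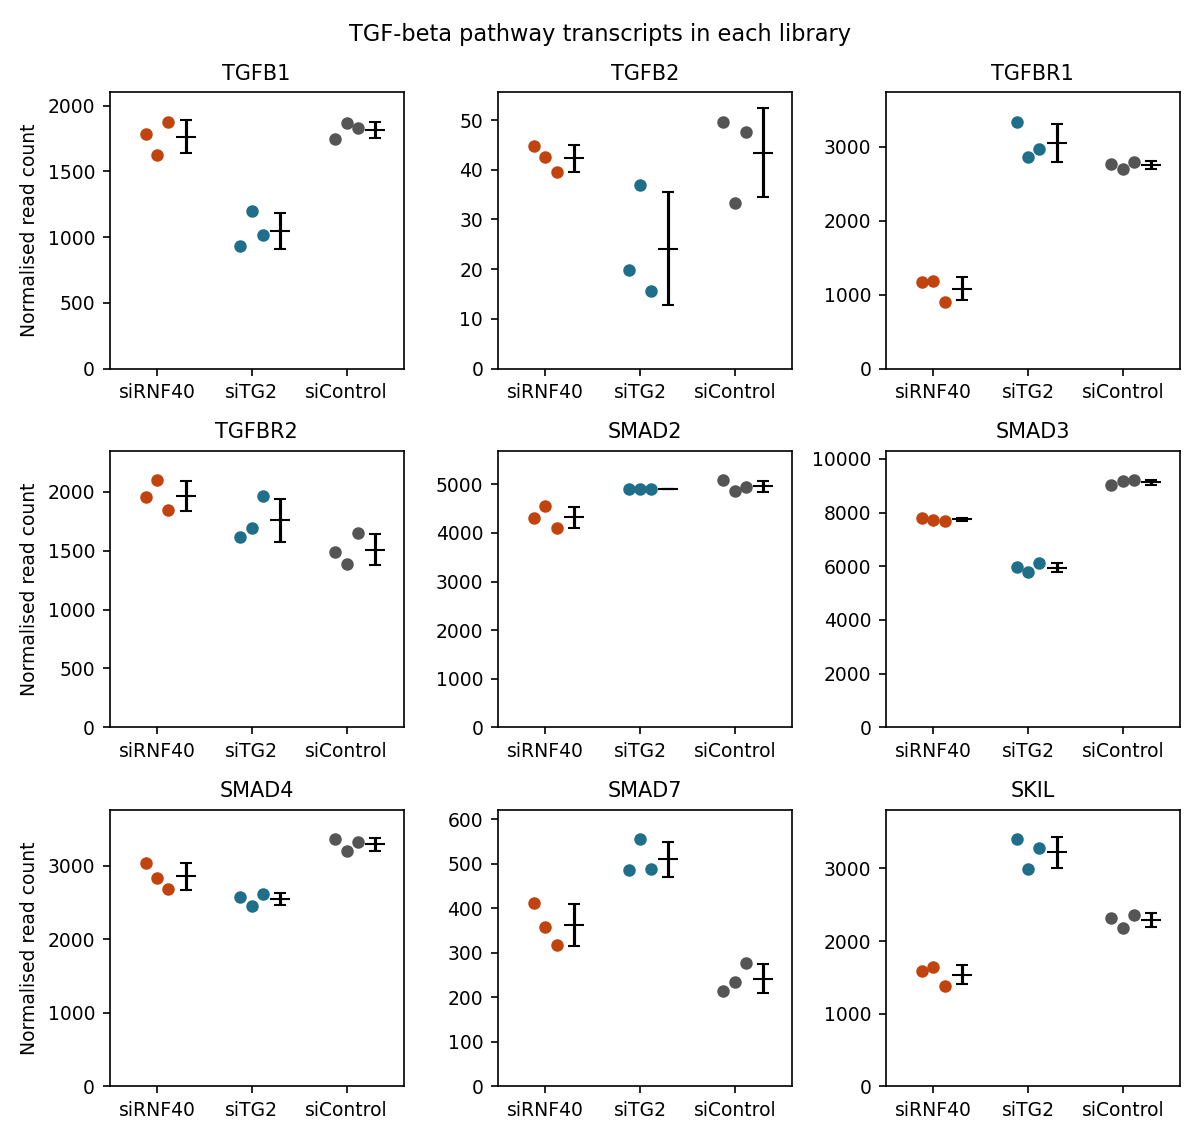
Normalised counts of the 9 genes in each library on linear axes from 0, a panel per gene, with siRNF40, siTG2 and siControl from left to right; points are libraries, and the bars beside them show the mean ± SD (n = 3). TGFBR1 in siRNF40 cells lies far below the other groups, SMAD7 is lowest in siControl cells, and SKIL is lowest in siRNF40 and highest in siTG2 cells.

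Against siControl, 7 of the 9 genes were called in siRNF40 cells, 2 higher and 5 lower, where 45.3% of all tested genes were called (21.7% higher, 23.6% lower). The share called was larger among better-expressed genes. With only genes of a mean of at least 50 tested, 7648 of 13545 were called in siRNF40 cells. All members but TGFB2 lie above that mean, so the shares over all genes are a low background for them. In siTG2 cells 5 were called, 2 higher and 3 lower, where 31.3% of all genes were called (12.8% higher, 18.5% lower). The libraries of knockdown and control did not overlap for 7 genes in siRNF40 cells (53.2% of all genes) and for 6 in siTG2 cells (46.5% of all genes). The median log2 fold change of the 9 was -0.20 in siRNF40 and -0.02 in siTG2 cells, beside medians over all genes of 0.02 and -0.01. Most changes were modest: 1 gene in each knockdown was called with at least a 2-fold change, TGFBR1 in siRNF40 cells and SMAD7 in siTG2 cells, where 8.63% and 4.9% of all genes were. Both comparisons share the siControl libraries, so they are not independent of each other.

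**Figure D2:**
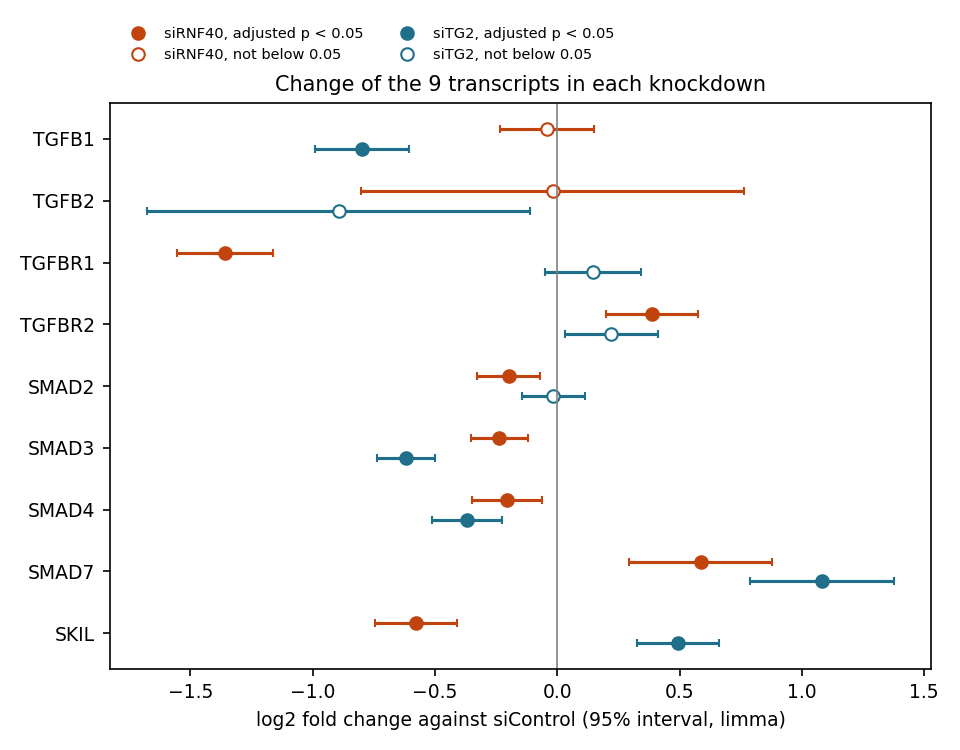
Log2 fold change of each gene in siRNF40 and in siTG2 cells against siControl, with 95% confidence intervals from limma; filled points were called. SKIL was lower in siRNF40 and higher in siTG2 cells, SMAD7 was higher in both, and SMAD3 and SMAD4 were lower in both.

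Of the ligands, TGFB1 was lower in siTG2 cells and close to the controls in siRNF40 cells. TGFB1 (ENSG00000105329, chr19:41807492-41859816 of hg19, minus strand) encodes the prototype ligand. It had 1786, 1627 and 1877 normalised counts in siRNF40 libraries, 931, 1198 and 1014 in siTG2 libraries and 1746, 1864 and 1832 in siControl libraries. All 3 siTG2 libraries lay below every other library, while siRNF40 and siControl overlapped. The log2 fold change was -0.80 in siTG2 cells (SE 0.092, adjusted p = 2.4e-06), a level 0.575-fold that of siControl. In siRNF40 cells it was -0.04 (95% interval -0.24 to 0.15, adjusted p = 0.74). TGFB1 overlaps HNRNPUL1, CCDC97 and TMEM91 on the opposite strand, and the strand setting of the authors' counting is not given in the sources used here. Reads from stretches that these genes share with TGFB1 may not have been assigned rightly if strand was ignored. HNRNPUL1 averaged 9407 in siRNF40, 7204 in siTG2 and 7753 in siControl cells. CCDC97 averaged 1048, 1050 and 1058 in the same groups, and TMEM91 200, 160 and 175.

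TGFB2, which encodes another ligand isoform, was scarce. TGFB2 (ENSG00000092969, chr1:218519577-218617961, plus strand) had 44.9, 42.5 and 39.5 normalised counts in siRNF40, 19.8, 37.0 and 15.6 in siTG2 and 49.7, 33.2 and 47.5 in siControl libraries, from 16 to 46 reads each. The second siTG2 library lay within the siControl range, so the groups overlapped. The log2 fold change in siTG2 cells was -0.89 with a 95% interval of -1.68 to -0.11, and it did not pass the adjusted threshold (adjusted p = 0.077). Without that library it did, at -1.24 (adjusted p = 0.026). Leaving out each library in turn moved it between -1.24 and -0.64, with limma adjusted p from 0.026 to 0.26. In siRNF40 cells the difference was -0.02 (interval -0.80 to 0.76, adjusted p = 0.97), too wide at this depth to bound the change closely.

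Of the receptors, TGFBR1 fell in siRNF40 cells, the largest change among the 9 genes in either knockdown. TGFBR1 (ENSG00000106799, chr9:101866320-101916474, plus strand) encodes the type I receptor kinase. It had 1164, 1179 and 901 normalised counts in siRNF40 libraries, 3340, 2856 and 2963 in siTG2 libraries and 2769, 2699 and 2797 in siControl libraries. Every siRNF40 library held less than the lowest library of the other groups. The log2 fold change was -1.36 in siRNF40 cells (SE 0.094, adjusted p = 1.3e-09), a level 0.390-fold that of siControl and the 498th lowest fold change of the 17663 genes. Leaving out each library in turn moved it between -1.43 and -1.23. In siTG2 cells it was 0.15 (interval -0.05 to 0.34, adjusted p = 0.26); the 3 siTG2 libraries lay just above the siControl ones.

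TGFBR2 moved the other way in siRNF40 cells. TGFBR2 (ENSG00000163513, chr3:30647994-30735634, plus strand) encodes the type II receptor kinase, the gene known to be mutated in this line. It had 1959, 2096 and 1843 normalised counts in siRNF40 libraries, 1615, 1696 and 1964 in siTG2 libraries and 1489, 1385 and 1647 in siControl libraries. The siRNF40 libraries were all above the siControl libraries, and the siTG2 libraries overlapped both groups. It rose by 0.39 on the log2 scale in siRNF40 cells (SE 0.090, adjusted p = 0.0016). In siTG2 cells the log2 fold change was 0.22 (interval 0.03 to 0.41, adjusted p = 0.069). That value lay near the threshold and passed it under several other settings, among them equal library totals (0.36, adjusted p = 0.0036) and edgeR (0.25, adjusted p = 0.042).

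The receptor-activated SMADs fell together in siRNF40 cells by small amounts, and in siTG2 cells SMAD3 fell while SMAD2 was not called. SMAD3 (ENSG00000166949, chr15:67356101-67487533, plus strand), a DNA-binding transducer, had 7814, 7741 and 7693 normalised counts in siRNF40 libraries, 5966, 5773 and 6105 in siTG2 libraries and 9028, 9177 and 9196 in siControl libraries. The 3 groups did not overlap at all and ran from siTG2 as the lowest to siControl as the highest. SMAD3 changed by -0.24 on the log2 scale in siRNF40 cells (SE 0.056, adjusted p = 0.0018) and -0.62 in siTG2 cells (SE 0.056, adjusted p = 1.0e-07). The spread was narrow, with SDs of 60.6, 167 and 92.1 around means of 7750, 5948 and 9134 in siRNF40, siTG2 and siControl cells.

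SMAD2 (ENSG00000175387, chr18:45357922-45457515, minus strand), the other transducer, had 4308, 4551 and 4108 normalised counts in siRNF40 libraries, 4908, 4895 and 4912 in siTG2 libraries and 5081, 4863 and 4938 in siControl libraries. The siRNF40 libraries lay below the rest, and the siTG2 libraries fell inside the siControl range. The log2 fold change was -0.20 in siRNF40 cells (SE 0.061, adjusted p = 0.012) and -0.02 in siTG2 cells (interval -0.14 to 0.11, adjusted p = 0.88). The siRNF40 call was lost without siControl replicate 1 (-0.18, adjusted p = 0.060).

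SMAD4 (ENSG00000141646, chr18:48494410-48611415, plus strand), the common partner of the receptor-activated SMADs, was lower in both knockdowns. It had 3043, 2839 and 2686 normalised counts in siRNF40 libraries, 2578, 2454 and 2612 in siTG2 libraries and 3362, 3196 and 3318 in siControl libraries. Neither knockdown overlapped siControl. The log2 fold change was -0.21 in siRNF40 cells (SE 0.068, adjusted p = 0.019) and -0.37 in siTG2 cells (SE 0.068, adjusted p = 0.00039). The siRNF40 call was lost without siRNF40 replicate 3 (adjusted p = 0.064), siControl replicate 1 (0.075) or siControl replicate 3 (0.061). ELAC1, which overlaps SMAD4 on the same strand, averaged 203 in siRNF40, 221 in siTG2 and 272 in siControl cells, 8.01% of the mean of SMAD4 over the libraries.

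The feedback inhibitors did not move alike: SMAD7 was higher in both knockdowns, and SKIL was lower in siRNF40 and higher in siTG2 cells. SMAD7 (ENSG00000101665, chr18:46446223-46477081, minus strand) had 413, 357 and 318 normalised counts in siRNF40 libraries, 487, 555 and 489 in siTG2 libraries and 213, 234 and 277 in siControl libraries. The groups were separate, with siTG2 the highest and siControl the lowest. It rose by 0.59 on the log2 scale in siRNF40 cells (SE 0.14, adjusted p = 0.0020) and by 1.08 in siTG2 cells (SE 0.14, adjusted p = 8.4e-06), 2.12-fold.

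SKIL (ENSG00000136603, chr3:170075466-170114623, plus strand), whose upstream window is printed above, had 1582, 1642 and 1386 normalised counts in siRNF40 libraries, 3402, 2990 and 3282 in siTG2 libraries and 2321, 2180 and 2366 in siControl libraries. The 3 groups were again separate, now with siRNF40 at the bottom and siTG2 at the top. SKIL changed by -0.58 on the log2 scale in siRNF40 cells (SE 0.080, adjusted p = 8.6e-06), 0.670-fold, and 0.49 in siTG2 cells (SE 0.080, adjusted p = 0.00010), 1.41-fold. SKIL was the only member called in opposite directions in the 2 knockdowns in the limma test, and it was so called under all 19 other settings tried; TGFBR1 joined it under quantile normalisation and equal totals.

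The knockdowns were then set directly against each other, which tests the difference between their effects. Of the 9 genes 6 were called, 2 higher and 4 lower in siRNF40 than in siTG2 cells, where 53.3% of all tested genes were called (26.6% higher, 26.6% lower). Libraries of siRNF40 and siTG2 did not overlap for 8 genes (58.3% of all genes). TGFBR1 differed by -1.50 (SE 0.094, adjusted p = 1.8e-10) and SKIL by -1.07 (SE 0.080, adjusted p = 1.9e-09), and these were the 2 members called with at least a 2-fold difference (14.2% of all genes). SMAD7 differed by -0.50 (adjusted p = 0.0056) and SMAD2 by -0.18 (adjusted p = 0.017). TGFB1 was higher in siRNF40 cells by 0.76 (adjusted p = 1.3e-06) and SMAD3 by 0.38 (adjusted p = 1.1e-05). SMAD4 differed by 0.16 (interval 0.02 to 0.31, adjusted p = 0.052), TGFB2 by 0.87 (interval 0.09 to 1.66, adjusted p = 0.057) and TGFBR2 by 0.16 (interval -0.02 to 0.35, adjusted p = 0.13), none of them past the threshold. SMAD4 was called under 4 other settings (adjusted p = 0.017 to 0.04996), among them without siRNF40 replicate 3 (0.017) and DESeq2 (0.048), while equal totals turned its sign. TGFB2 was called under quantile normalisation (0.021) and without siTG2 replicate 2 (0.015), and TGFBR2 without siTG2 replicate 3 (0.043), while equal totals turned the sign of TGFBR2. The call of SMAD2 was lost without siRNF40 replicate 3 (adjusted p = 0.052).

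For 6 of the called members the gene nearest in pattern is given, found among 11598 genes, as the smallest root-mean-square difference of centred log2 values over the 9 libraries. TGFBR1 was nearest to CNOT6, which encodes a deadenylase (0.071), with means of 1892 in siRNF40, 5215 in siTG2 and 5056 in siControl cells. SMAD3 was nearest to ITPR3, an intracellular calcium channel (0.032), and SMAD2 to ADNP, a nuclear homeobox protein (0.031). SMAD4 was nearest to NFKB1, an NF-kB subunit (0.042) and TGFB1 to CALM3, a calmodulin gene (0.068). Of these, SMAD7 had the most distant neighbour, SQSTM1, an autophagy receptor (0.14), with means of 30648 in siRNF40, 44557 in siTG2 and 21119 in siControl cells. The median difference of all compared genes from a member was 0.27 to 0.72. The members themselves varied by unlike amounts over the libraries. The root-mean-square of their own centred values was 0.098 for SMAD2, 0.46 for SMAD7 and 0.69 for TGFBR1. The distances of different members are therefore not on a like scale.

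A 7-base word of the 3' untranslated region, GTCTTCA, moved with the lower calls of siRNF40 cells over all genes; it was picked earlier on these same data. Among 12932 genes searched, 54.0% of the 1645 with the word were called lower, against 25.5% of those without it, and the carriers had longer 3' UTRs (median 2893 against 894 bases). The word is present in the 3' UTR of 4 of the 9 members, beside 12.7% of the genes searched. The members have long 3' UTRs, from 729 bases in TGFB1 to 32870 in SMAD2, and a longer region holds more words, so the 2 shares are not like for like. The carriers are SMAD2 with 3 sites in its 32870 bases, SMAD3 with 2 in 4659, SKIL with 1 in 4418 and TGFB2 with 1 in 3257, of which the first 3 genes were called lower in siRNF40 cells and TGFB2 was not. These counts hold for the longest principal transcript with the best support level for each gene. SMAD2 and SKIL also have shorter principal transcripts, of 12.1 and 3.06 kb, which were not searched and may lack sites. The sites of SMAD3, SKIL and TGFB2 are printed from GENCODE 29 transcripts with the word in capitals.
SMAD3, first site: cacagatccttGTCTTCAgcaccttccaa
SMAD3, second site: ttcaggtaaccGTCTTCAcaatgtatttt
SKIL: gacattgtatcGTCTTCAttttccagaag
TGFB2: cgagttcagtgGTCTTCAtcttccaagca
TGFBR1, the member with the largest fall, has no copy of the word anywhere in its transcript, nor has SMAD4. The word GCGCCCT, picked in the same way for siTG2 cells, is in the 3' UTR of 2.84% of the genes. Of those genes 41.7% were called lower in siTG2 cells, against 22.6% of the genes without it. The carriers had longer 3' UTRs (median 1837 against 1026 bases). GCGCCCT is in the 3' UTR of 0 members. Over the whole transcript TGFB1 has 2 copies and SMAD3 has 1, both of them genes called lower in siTG2 cells. The other members have none, among them SMAD4, which was also called lower. How many of all genes hold the word anywhere in the transcript was not counted, so these copies have no background share. The part of these words in the results was not tested.

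Beyond the members, 64 further genes of the pathway were read in 5 lists, of which 61 were tested. In siRNF40 cells 13 were called higher and 26 lower (median log2 fold change -0.11), where 21.7% of all tested genes were called higher and 23.6% lower. In siTG2 cells 23 were called higher and 14 lower (median 0.13), where 12.8% of all genes were higher and 18.5% lower. The medians over all genes were 0.02 and -0.01. The split in siTG2 cells depends on the scaling: it was 30 higher and 7 lower when the libraries were given equal totals, which moved the median of all genes to 0.13. Under quantile normalisation it was 29 higher and 9 lower, with the median of all genes at 0.0040.

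**Figure D3:**
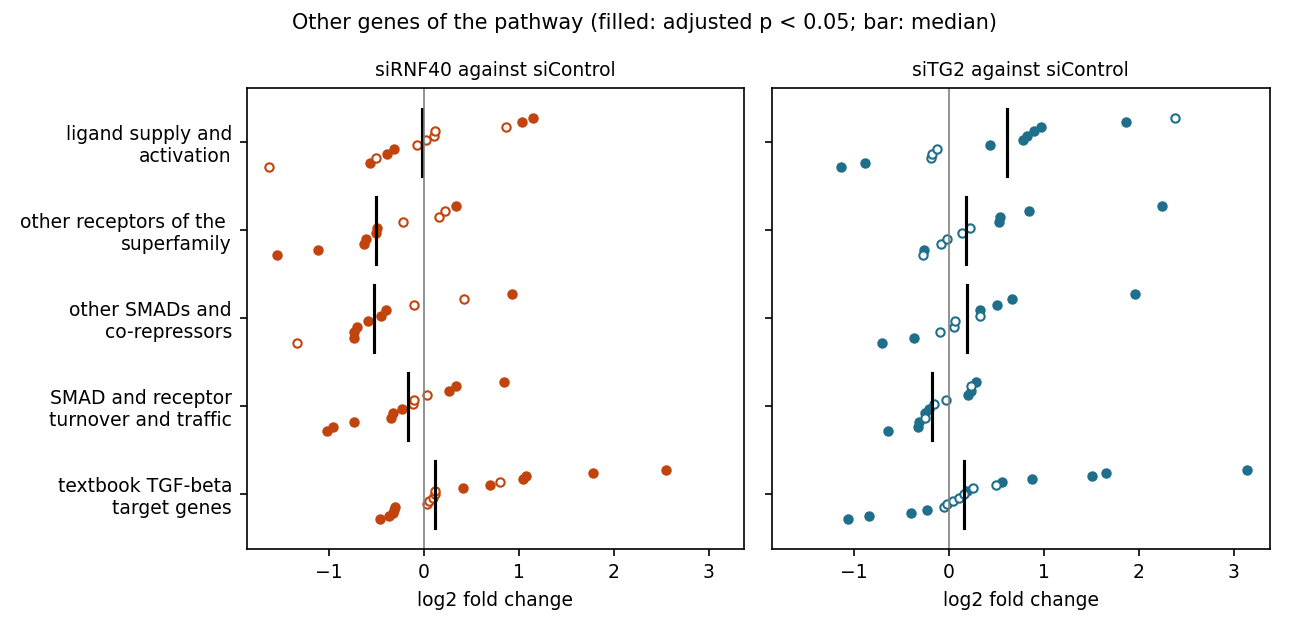
Log2 fold change of the tested genes in each of the 5 pathway lists, in siRNF40 and in siTG2 cells against siControl; each point is a gene, filled points were called and black bars are the medians of the tested genes. In siRNF40 cells the other receptors and the other SMADs and co-repressors lie mostly below 0, with 6 of 10 called lower in each list.

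Among the other receptors of the superfamily, 6 of 10 tested were called lower and 1 higher in siRNF40 cells (median -0.50), beside 23.6% lower and 21.7% higher of all genes. In siTG2 cells 4 were higher and 1 lower (median 0.18), beside 12.8% higher and 18.5% lower of all genes. TGFBR3, the betaglycan co-receptor that presents ligand, averaged 82.8 ± 31.9 normalised counts in siRNF40 and 418 ± 10.6 in siTG2 cells, against 233 ± 14.7 in siControl cells (SD, n = 3 each). Its log2 fold change was -1.55 in siRNF40 cells (adjusted p = 7.3e-06) and 0.84 in siTG2 cells (adjusted p = 0.0047). ACVR1, a type I receptor for bone morphogenetic proteins (BMPs), averaged 528 ± 3.86 in siRNF40 and 1142 ± 60.9 in siControl cells, a log2 fold change of -1.11 (adjusted p = 6.7e-09). BMPR1A, another BMP type I receptor, fell by 0.60 (adjusted p = 4.6e-06). In siTG2 cells ACVRL1, a type I receptor known from endothelium, averaged 163 ± 19.3 against 34.7 ± 11.5 in siControl cells (2.24, adjusted p = 5.5e-05), and BMPR2, the BMP type II receptor, rose by 0.54 (adjusted p = 0.00031).

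Among the other SMADs and co-repressors, 6 of 10 were called lower and 1 higher in siRNF40 cells (median -0.52; all genes 23.6% lower, 21.7% higher). In siTG2 cells 4 were higher and 2 lower (median 0.19; all genes 12.8% higher, 18.5% lower). SMAD5, a transducer of BMP signals, averaged 2905 ± 323 in siRNF40 and 4828 ± 297 in siControl cells (-0.74, adjusted p = 1.7e-06). The co-repressor TGIF1 had the sign pattern of SKIL: it averaged 3734 ± 167 in siRNF40 and 8626 ± 392 in siTG2 cells, against 6087 ± 275 in siControl cells. Its log2 fold changes were -0.71 (adjusted p = 4.3e-08) and 0.50 (adjusted p = 6.7e-06). Its relative TGIF2 rose by 0.93 in siRNF40 cells (adjusted p = 3.3e-06). SMAD6, an inhibitory SMAD related to SMAD7, averaged 225 ± 27.8 in siTG2 and 58.3 ± 14.8 in siControl cells (1.95, adjusted p = 9.7e-06). CREBBP, a histone acetyltransferase and SMAD co-activator, fell by 0.70 in siTG2 cells (adjusted p = 2.6e-07).

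In ligand supply and activation, 2 of 12 tested were called higher and 3 lower in siRNF40 cells (median -0.02), near the 45.3% of all genes called in either direction. In siTG2 cells 6 were higher and 2 lower (median 0.61; all genes 12.8% higher, 18.5% lower). FURIN, the protease that cleaves the TGF-beta precursor, averaged 1222 ± 39.4 in siTG2 and 2688 ± 40.6 in siControl cells (-1.14, adjusted p = 7.2e-10). ITGB8, an integrin subunit that releases active ligand, was higher in both knockdowns, with log2 fold changes of 1.15 in siRNF40 (adjusted p = 8.6e-06) and 0.90 in siTG2 cells (adjusted p = 0.00025). TGFB3, the remaining ligand isoform, was also higher in both, at 127 ± 17.5 in siRNF40 and 121 ± 25.4 in siTG2 against 62.9 ± 19.6 in siControl cells (adjusted p = 0.0028 and 0.0073). INHBB, an activin subunit, rose by 1.86 in siTG2 cells (adjusted p = 0.00078). LTBP1, which binds latent ligand to the matrix, fell by 0.57 in siRNF40 cells (adjusted p = 0.0036). In siTG2 cells it was higher, at 667 ± 77.9 against 388 ± 48.7 in siControl cells.

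In turnover and traffic, 3 of 12 were called higher and 6 lower in siRNF40 cells (median -0.17; all genes 21.7% higher, 23.6% lower). In siTG2 cells 3 were higher and 5 lower (median -0.18; all genes 12.8% higher, 18.5% lower). SMURF2, a ubiquitin ligase that SMAD7 brings to the receptor, averaged 7464 ± 595 in siRNF40 and 9679 ± 606 in siTG2 cells, against 15086 ± 380 in siControl cells. It fell by 1.02 (adjusted p = 7.0e-10) and by 0.64 (adjusted p = 7.0e-07). USP9X, a deubiquitinase of SMAD4, fell by 0.96 in siRNF40 cells (adjusted p = 3.6e-09), and TRIM33, a ligase that acts on SMAD4, by 0.74 (adjusted p = 6.1e-06). FKBP1A, the protein that holds the type I receptor inactive, averaged 12575 ± 1560 in siRNF40 and 6959 ± 362 in siControl cells (0.85, adjusted p = 3.7e-08).

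The textbook target genes were called in both directions. In siRNF40 cells 6 of 17 were higher and 5 lower (median 0.12; all genes 21.7% higher, 23.6% lower). In siTG2 cells 6 were higher and 4 lower (median 0.16; all genes 12.8% higher, 18.5% lower). CTGF, a matricellular protein gene also driven by YAP, averaged 2756 ± 19.0 in siRNF40 and 856 ± 57.6 in siTG2 cells, against 469 ± 42.0 in siControl cells, log2 fold changes of 2.56 (adjusted p = 5.3e-13) and 0.87 (adjusted p = 6.7e-07). CDKN1A, the p21 cell-cycle inhibitor and also a p53 target, averaged 74315 ± 5888 in siRNF40, 21298 ± 1188 in siTG2 and 21567 ± 479 in siControl cells. It rose by 1.78 in siRNF40 cells (adjusted p = 5.3e-13) and stood at -0.02 in siTG2 cells (adjusted p = 0.86), a sign that turned under 4 other settings and was called higher under 1, quantile normalisation (0.16, adjusted p = 0.044). PMEPA1, a feedback inhibitor, rose by 1.04 (adjusted p = 0.00032) and JUNB, an AP-1 subunit, by 0.70 (adjusted p = 1.3e-07) in siRNF40 cells. In siTG2 cells ID2, an inhibitor of helix-loop-helix factors, rose by 1.66 (adjusted p = 4.6e-11) and KLF11, a repressor of SMAD7, fell by 0.84 (adjusted p = 3.1e-06).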

How the data were processed

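Polyadenylated RNA of HCT116 cells was sequenced in 9 libraries, 3 per group. Per the submitters' processing notes, reads were handled with Trim Galore 0.4.1, STAR 2.7.0, HTSeq 0.12.4 and DESeq2, and hg19 and hg38 are both named; the coordinates in the table are hg19. The deposited table holds a signal: per the file headers, DESeq2-normalised counts, each library's reads over its own size factor. All values (100%) lay within 0.001 reads of a whole read, so reads were recovered. Columns headed NC were read as siControl, since their means match the siNC columns of the comparison tables. The authors also deposited 2 comparison tables against siControl with log2 fold changes, a Wald score and p-values; the authors' deposited table gives TGFBR1 a log2 fold change of -1.35 in siRNF40 cells and calls the same members.

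The test was limma 3.58.1 (R 4.3.3) with an intensity trend on log2(value + 1), two-sided, in a single fit over the 9 libraries with group means only. The 17663 genes with a mean of at least 10 were tested. SE and intervals are limma's, and levels are means ± SD. Alternatives, 19 in number, were other pseudocounts, filters, scalings, a replicate block, the 6 libraries of a comparison alone, leaving out each library, and edgeR 4.0.16 (TMM) and DESeq2 1.42.0 on recovered reads. edgeR called 7926 genes in siRNF40 and 5455 in siTG2 cells, against 8000 and 5533 by limma.

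The members, lists and words were chosen with earlier results of these data known. From each pathway list and knockdown, up to 4 called genes ranked by size of change, with a mean of 50 or more, and up to 2 uncalled genes of highest mean, could be named; not all were. HNRNPUL1, CCDC97, TMEM91 and ELAC1 are named because they overlap members. COL1A1 and the single colon epithelium markers were named after their values were seen. Groups of 3 are too small for a check for single outlying libraries. A few genes that this rule would name are not reported here.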

Additional observations from a re-analysis of the deposited data

How the results depend on the processing

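Of 510 values of the members under the 19 alternatives, 475 kept their direction and side of the threshold, 7 lost a call, 17 gained one and 11 turned in sign. None of the values that turned had been called. For TGFB1 in siRNF40 cells it was 0.030 under quantile normalisation, and it ranged from -0.089 to 0.014 when each library was left out. For TGFB2 in siRNF40 cells it ranged from -0.20 to 0.086 when libraries were left out. For SMAD2 in siTG2 cells it was 0.15 under quantile normalisation, 0.13 under equal totals and 0.0066 with edgeR, and ranged from -0.030 to 0.0015 when libraries were left out. Between siRNF40 and siTG2 cells, equal totals gave -0.012 for TGFBR2 and -0.013 for SMAD4.

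Quantile normalisation called 8 members in siTG2 cells (4 higher, 4 lower) and 5 in siRNF40 cells (2 higher, 3 lower), where SMAD2 (adjusted p = 0.077) and SMAD4 (0.099) were lost; equal totals called 7 in siTG2 cells (4 higher, 3 lower). The gains in siTG2 cells were TGFB2 (adjusted p = 0.023), TGFBR1 (0.036) and TGFBR2 (0.0071) under quantile normalisation, and TGFBR1 (0.023) and TGFBR2 (0.0036) under equal totals. Over all genes equal totals gave 3872 higher and 1890 lower in siTG2 cells, and 3278 higher and 6324 lower between siRNF40 and siTG2 cells; it moved the median of all genes to 0.13 and -0.19. The cause was not tested. Leaving out libraries gave 5 to 7 members called in siRNF40, 5 to 6 in siTG2 and 6 to 7 between the knockdowns, 36 to 39, 30 to 42 and 40 to 44 pathway genes, and 6967 to 8073, 4453 to 6150 and 8396 to 9345 of all genes.

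With a replicate block 7, 5 and 6 members were called, 40, 34 and 44 pathway genes, and 7735, 5164 and 9203 of all genes. Libraries of the same number did not deviate together more than others. Their correlations were -0.075 to 0.081, beside -0.079 to 0.092 for libraries of unlike number. These values give no sign of pairing by number, but 3 libraries per group cannot show that cultures or batches were not shared. Of 836 values of pathway genes, checked after seeing the data, 813 were unaltered in call and direction, 17 lost a call, 2 gained one and 4 turned, all for CDKN1A in siTG2 cells (0.16 and called, adjusted p = 0.044, under quantile normalisation, 0.12 under equal totals, 0.0046 with edgeR, and -0.065 to 0.0090 when libraries were left out). TGFB2 has no value under a minimum mean of 50, and its 16 to 46 reads limit its precision.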

Other observations

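A list of 19 BMP and activin ligands and their soluble antagonists, chosen after the results above were seen, held 12 tested genes. In siRNF40 cells 6 were called higher and 2 lower, and in siTG2 cells 6 higher and 3 lower, beside 45.3% and 31.3% of all genes called in either direction. GDF15, a stress-induced member of the superfamily, averaged 51768 normalised counts in siRNF40, 21798 in siTG2 and 25099 in siControl cells. It rose by 1.04 on the log2 scale in siRNF40 cells (limma adjusted p = 1.0e-09) and fell by 0.20 in siTG2 cells (0.035). Its siTG2 libraries (19969 to 23233) overlapped the siControl libraries (23139 to 26414). FSTL1, a secreted BMP-binding glycoprotein, averaged 324 in siRNF40, 1313 in siTG2 and 1024 in siControl cells, with log2 fold changes of -1.65 (2.0e-10) and 0.36 (0.0086). TWSG1, an extracellular BMP modulator, averaged 1479, 2661 and 3499 in the same groups and fell in both (-1.24, adjusted p = 5.0e-10, and -0.40, adjusted p = 0.00081). BMP4 averaged 2051 in siTG2 and 1337 in siControl cells (0.61, adjusted p = 7.3e-05). FST, the activin antagonist follistatin, was scarce, with means of 24.2 in siTG2 and 2.75 in siControl cells.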
